A study of Mus musculus with 2 samples.

Results

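The genes of the classical MHC class I molecule and of its peptide loading machinery were examined in CD8+CD122+ T cells, against CD8+CD122- T cells. The set has 8 genes: the heavy chain genes H2-K1 and H2-D1, the light chain gene B2m, the peptide transporter genes Tap1 and Tap2, and the loading factor genes Tapbp, Calr and Pdia3. Its members were the non-control probes that carry one of these symbols, or an older name of the same gene, in either scanner file. This rule found 11 of 41174 probes, for 7 of the 8 genes, out of 19064 named genes with a probe. H2-K1 had no probe under its own name. A further 5 probes with other names are described in the files as H-2K, the protein of H2-K1. They were chosen after their values were seen, and they are given beside the 11 members, not among them.

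Both populations were sorted from the spleens of C57BL/6 mice, and their mRNA was amplified, labelled with the dyes Cy5 and Cy3 and hybridised together. CD122 is a receptor chain for the cytokines interleukin 2 and interleukin 15, and the series calls the CD8+CD122+ cells regulatory. On array 1 the CD8+CD122+ RNA carried Cy5 and the CD8+CD122- RNA carried Cy3, and on array 2, a second trial, the dyes were exchanged. The sources used here do not give the age or sex of the mice, whether several were pooled, or whether the second trial used new mice. There are therefore n = 2 paired measurements, this number limits the precision, and p-values measure only the spread between these 2 arrays.

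Class I molecules carry peptides from inside the cell to its surface, where T cell receptors of CD8 T cells and inhibitory receptors of natural killer cells read them. The heavy chain folds with the light chain in the endoplasmic reticulum, and the TAP transporter pumps in peptides cut by the proteasome. Tapasin holds the empty molecule at TAP together with calreticulin and the disulfide isomerase ERp57 until a peptide fits. All nucleated cells make class I, lymphocytes in large amounts, and interferons raise the transcription of most of these genes.

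The sequences just upstream of the genes were searched for short motifs that the genes share or do not share, and they are given before the values. RefSeq (GRCm38.p6) promoter windows, which run from 250 bases before to 50 bases after the annotated start, were at hand for 7 of the 8 genes. The windows of both heavy chain genes, the light chain gene, Tap1 and Calr are printed on the strand of the gene, 5′ to 3′. In the first 3, capitals mark an interferon regulatory factor core (AANNGAAA on either strand), the CREB core site TGACG and the letters ATTGG, which are CCAAT, the box bound by NF-Y, on the other strand. In H2-K1 and H2-D1 they also mark a kappa B palindrome (GGGGA and TCCCC with 1 base between them). In Tap1 they mark CCAAT and TGACG, and in Calr the letters CGTGG and ATTGG. Other matches to these motifs stay in lower case. The windows lie at chr17:34000298-34000597 (minus strand) for H2-K1, chr17:35262844-35263143 (plus strand) for H2-D1, chr2:122147437-122147736 (plus strand) for B2m, chr17:34187306-34187605 (plus strand) for Tap1 and chr8:84846882-84847181 (minus strand) for Calr.
H2-K1: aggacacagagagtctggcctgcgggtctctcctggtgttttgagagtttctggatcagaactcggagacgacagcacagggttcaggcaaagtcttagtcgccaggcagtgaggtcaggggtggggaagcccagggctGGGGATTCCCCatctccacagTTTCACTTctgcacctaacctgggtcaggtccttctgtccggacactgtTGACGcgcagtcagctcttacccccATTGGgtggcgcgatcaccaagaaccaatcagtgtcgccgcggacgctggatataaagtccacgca
H2-D1: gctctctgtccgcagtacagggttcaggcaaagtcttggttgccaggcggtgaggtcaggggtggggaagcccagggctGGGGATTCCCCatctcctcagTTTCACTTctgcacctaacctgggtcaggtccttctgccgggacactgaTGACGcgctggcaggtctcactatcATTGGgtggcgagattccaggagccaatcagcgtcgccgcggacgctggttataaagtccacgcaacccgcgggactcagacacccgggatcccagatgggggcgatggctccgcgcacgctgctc
B2m: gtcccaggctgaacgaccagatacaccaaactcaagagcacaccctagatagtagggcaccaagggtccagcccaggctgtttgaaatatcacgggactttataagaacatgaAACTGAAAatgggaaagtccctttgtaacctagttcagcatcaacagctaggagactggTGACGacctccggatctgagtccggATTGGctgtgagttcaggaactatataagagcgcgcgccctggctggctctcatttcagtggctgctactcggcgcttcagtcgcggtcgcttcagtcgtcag
Tap1: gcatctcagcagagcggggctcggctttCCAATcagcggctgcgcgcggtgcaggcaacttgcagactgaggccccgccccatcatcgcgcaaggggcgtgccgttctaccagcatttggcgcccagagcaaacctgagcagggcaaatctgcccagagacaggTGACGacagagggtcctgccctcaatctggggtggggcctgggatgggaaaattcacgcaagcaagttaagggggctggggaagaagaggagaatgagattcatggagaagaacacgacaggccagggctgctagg
Calr: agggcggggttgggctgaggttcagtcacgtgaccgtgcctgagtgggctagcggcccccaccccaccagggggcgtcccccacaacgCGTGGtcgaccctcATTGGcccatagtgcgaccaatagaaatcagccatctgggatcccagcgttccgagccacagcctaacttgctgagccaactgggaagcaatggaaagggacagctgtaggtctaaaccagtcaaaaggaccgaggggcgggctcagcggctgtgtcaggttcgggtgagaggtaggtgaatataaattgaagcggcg

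H2-K1, H2-D1 and B2m shared 1 arrangement, TGACG followed after 20 bases by ATTGG. Positions are counted from 0 at the annotated start, with negative numbers upstream. The arrangement lay at -41 to -12 in H2-K1, at -101 to -72 in H2-D1 and at -78 to -49 in B2m. RefSeq lists another start for H2-K1, from which the arrangement lies at -55 to -26. The arrangement was searched for after the letters had been read, on both strands, and 31 of 32851 windows held it (0.0944%), from 27 of 27025 genes. A CREB core site alone was in 20.8% of windows, a CCAAT box in 37.4% and the interferon regulatory factor core in 23.9%. The kappa B palindrome was in 16 windows of 15 genes (0.0487%), and H2-K1 and H2-D1 were among them. Between 8 and 12 windows held the core site and the box at each other spacing from 15 to 25 bases, except 23 windows at 21 bases, and the members had theirs only at 20.

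H2-K1 and H2-D1 are paralogs, and their windows shared an unbroken run of 47 bases, whereas the longest run that H2-K1 shared with B2m was 8 bases. The arrangement in B2m thus stands in otherwise different letters. Tap1 had a CREB core site at -86 to -82 and a CCAAT box at -222 to -218, not in that arrangement. Its window overlaps by 275 bases that of Psmb9, an immunoproteasome subunit gene read from the opposite strand. Calr had neither TGACG nor the arrangement, but it held CCAAT and, 9 bases on, CCACG, on the strand opposite to the gene at -162 to -144. That is the layout known as the ER stress element. It was in 39 windows of 37 genes (0.119%), among them the chaperone genes Hspa5, Hsp90b1, Canx, Pdia6 and Dnajc3. Calr also held the interferon regulatory factor core, at -129 to -122 and at -59 to -52, whereas Tap1, Tapbp and Pdia3 had no match to it. Pdia3 held a CREB core site and CCAAT boxes and Tapbp only CCAAT boxes, in neither arrangement. A match describes letters and not a bound site, and the files hold no measure of binding.

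**Figure D1:**
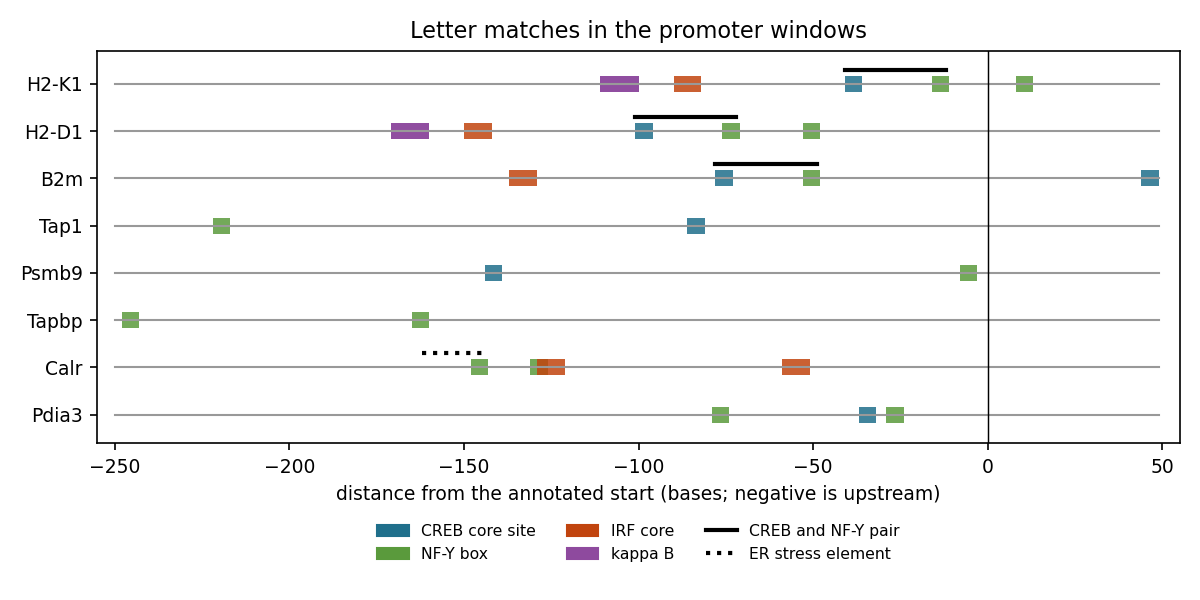
Matches to the searched motifs in the promoter windows of 7 members and of Psmb9, by distance from the annotated start in bases (x axis) and gene (rows). Coloured blocks are single motifs on either strand, the solid bar is TGACG and ATTGG 20 bases apart, and the dotted bar is the ER stress element. The solid bar stands over H2-K1, H2-D1 and B2m, and the dotted bar over Calr.

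As checks of the sort, Il2rb, the CD122 gene, had a log2 ratio of 2.60 on array 1 and 2.34 on array 2. Log2 ratios are given throughout with CD8+CD122+ on top, opposite to the series' deposited value table. Cd8a had -0.31 and -0.91 and Cd8b1 had -0.48 and -0.86, so that both CD8 chain genes, which define the cells of either population, were measured on the negative side on both arrays. Signals well above background were found for 76.2% of probes in CD8+CD122+ cells and 69.3% in CD8+CD122- cells on array 1, and for 80.1% and 83.3% of probes on array 2. A filter kept the 30794 probes with such a signal in the same population on each array, and all 11 member probes passed it. Each did so in either population, so none passed through 1 population alone. No member probe had a saturated spot.

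Across the set, log2 ratios were small and mostly negative, with the transporter genes lowest in the mean of both arrays. Of the 11 member probes, 7 were negative on both arrays, against 25.6% of all probes tested. Of the rest, 1 was positive on both, against 27.8% of all probes, and 3 had opposite signs, against 46.6%. With median centring in place of loess 3 of the 11 were negative on both arrays, and 2 without normalisation. The share of all probes was not counted in those 2 settings, so these counts have no share beside them. The median over the member probes was -0.15 (-0.16 on array 1 and -0.11 on array 2), and the median over all probes tested was 0.00. B2m and Tapbp have more than 1 probe among those negative on both arrays. Among the Tapbp probes, A_51_P224324 was dim and near 0 (-0.03 and -0.01), and its gene is uncertain. With 1 probe a gene, the brightest, the median was -0.27. Of these 7 probes, 4 were negative on both arrays, 1 was positive on both and 2 had opposite signs. Over all named genes read in this way the shares were 25.5%, 28.3% and 46.2%. None of the 11 was 2-fold higher (0.253% of all probes) or 2-fold lower (0.0812%) on both arrays. One size down, 1 was at least 1.5-fold lower on both arrays, against 0.296% of all probes, and 0 were 1.5-fold higher, against 0.63%. limma called 0 members and 0 of 30794 probes at an adjusted p under 0.05, and the adjusted p of the members lay between 0.547 and 0.970. At an unadjusted p under 0.05 it found 3 member probes, for Tap1, Tap2 and Tapbp, all with negative ratios, beside 3.49% of all probes with negative and 2.62% with positive ones. These are amplified RNA pools of sorted cells, so fewer cells that carry a transcript and less of it in each cell cannot be told apart.

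**Figure D2:**
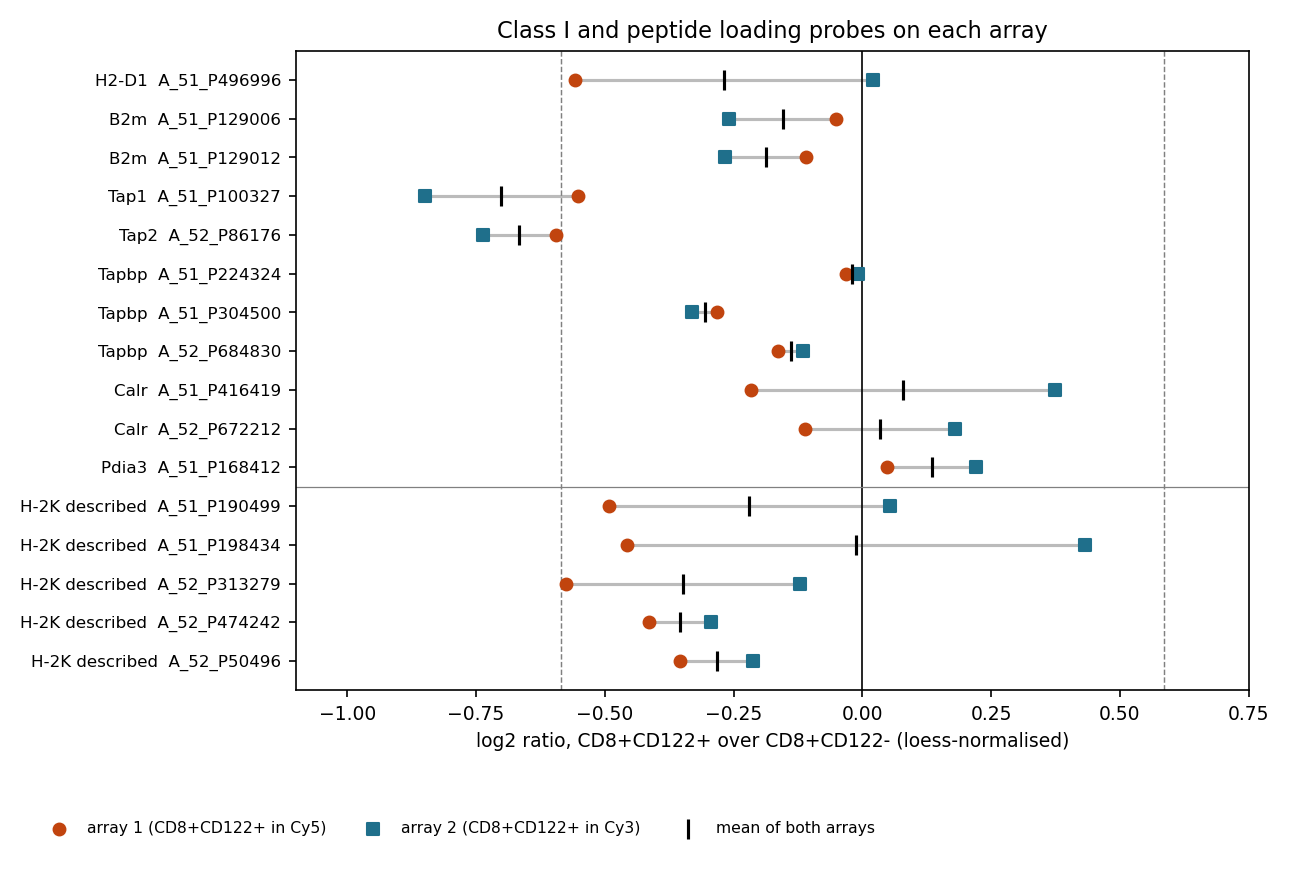
Log2 ratio of CD8+CD122+ over CD8+CD122- (x axis) of each of the 11 member probes and, under the line, the 5 probes described as H-2K. Circles are array 1, squares array 2, ticks their mean and dashed lines 1.5-fold in either direction. After loess, the means of Tap1 and Tap2 lie furthest left, and the values of H2-D1, Calr and 2 H-2K probes, 1 of them saturated on array 2, straddle 0.

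H2-D1 encodes one of the 2 classical heavy chains of this strain. Its probe had normalised intensities of 8336 on array 1 and 12004 on array 2 in CD8+CD122+ cells, against 12273 and 11828 in CD8+CD122- cells. Intensities are set side by side only within an array and a probe, since the arrays were not scaled to each other and probes differ in efficiency. The sums over marker genes further on are the exception. CD8+CD122+ cells were thus lower on array 1 and nearly level with CD8+CD122- cells on array 2. The log2 ratios were -0.56 and 0.02, with a mean of -0.27 ± 0.41 (SD, n = 2 arrays, here and below; limma's adjusted p 0.894). With median centring they were 0.065 and -0.46, so the sign on each array turned with the scaling. The SD exceeded the mean, so no difference was detectable for H2-D1 with these arrays.

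The probes described as H-2K stand in for H2-K1, the gene of the other classical heavy chain. By positions in the file of array 2, whose genome build is not named, 4 of the 5 lie within 3423 bases of one another, and 2 of these start 8 bases apart. The remaining probe, A_52_P313279, lies 305 bases from the H2-D1 probe and 1270157 bases from the H-2K probe A_51_P190499. The file of array 1 describes it as H2-L, a heavy chain gene that the haplotype of C57BL/6 mice lacks. Class I heavy chain genes are near-identical copies, so the share of each gene in the signal of any of these probes is uncertain.

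The brightest H-2K probe, A_51_P198434, had intensities of 39042 and 67735 in CD8+CD122+ cells, against 53566 and 50213 in CD8+CD122- cells. On array 2 its spot was saturated in CD8+CD122- cells and not in CD8+CD122+ cells, with a raw mean of 65172. Its log2 ratio was -0.46 on array 1 and at most 0.43 on array 2, so its direction there is unknown and its mean of -0.01 is an upper bound too. A_51_P190499, which starts 8 bases away, had 20800 and 37191 in CD8+CD122+ cells, against 29256 and 35853 in CD8+CD122- cells. Its spots were not saturated on either array, and its log2 ratios were -0.49 and 0.05 (mean -0.22 ± 0.39), negative on array 1 and near 0 on array 2 as for H2-D1. With median centring its log2 ratios were 0.23 and -0.46.

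The other H-2K probes were negative on both arrays after loess, and with median centring they lay between 0.011 and 0.079 on array 1 and between -0.74 and -0.61 on array 2. A_52_P474242 had 1552 and 2057 in CD8+CD122+ cells, against 2068 and 2524 in CD8+CD122- cells, and log2 ratios of -0.41 and -0.29 (mean -0.35 ± 0.08; limma's adjusted p 0.690). A_52_P50496, to which the file of array 2 gives another gene's name, had 1562 and 2483 in CD8+CD122+ cells, against 1995 and 2878 in CD8+CD122- cells (log2 ratios -0.35 and -0.21). A_52_P313279 had 10909 and 15371 in CD8+CD122+ cells, against 16252 and 16726 in CD8+CD122- cells (log2 ratios -0.58 and -0.12). In both populations all 5 probes were well above background.

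Over the 6 heavy chain probes, H2-D1 and H-2K together, the median log2 ratio was -0.28 (array 1, -0.47, and array 2, -0.05), with the saturated probe at its measured value. After loess all 6 were negative on array 1. On array 2, H2-D1 and A_51_P190499 were positive, 3 probes were negative, and the saturated one had only its bound. With median centring all 6 were positive on array 1 and negative on array 2, so these signs turned with the scaling. After loess the H2-D1 probe differed by 0.58 between the arrays, whereas the median difference over all probes was 0.12 in size. These values are not like for like, since 99.3% of the probes tested were no brighter than H2-D1 and dim probes have shrunken ratios. Array 1 and array 2 carried the populations in opposite dyes, so a dye effect and a difference between the trials cannot be told apart.

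B2m encodes beta-2 microglobulin, the light chain of every classical class I molecule and of most class I-like ones. Its probe A_51_P129006 had 8483 and 15297 in CD8+CD122+ cells, against 8788 and 18297 in CD8+CD122- cells. The second probe, A_51_P129012, had 15229 and 11825 in CD8+CD122+ cells, against 16432 and 14219 in CD8+CD122- cells. Both probes were lower in CD8+CD122+ cells on both arrays, by little on array 1 (log2 ratios -0.05 and -0.11) and by more on array 2 (-0.26 and -0.27). The means were -0.15 ± 0.15 and -0.19 ± 0.11 (limma's adjusted p 0.885 and 0.847). With median centring both probes turned positive on array 1 (0.55 and 0.56) and stayed negative on array 2 (-0.75 and -0.75). After loess, B2m thus had its lower ratio on the array on which H2-D1 and the unsaturated H-2K probes had their higher ones.

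Tap1 and Tap2 encode the subunits of the peptide transporter, and they had the lowest mean ratios of the set. On array 1 alone H2-D1 was as low as Tap1 (-0.56 and -0.55), and on array 2 it was not. Tap1 had 161 and 273 in CD8+CD122+ cells, against 236 and 493 in CD8+CD122- cells. Tap2 had 457 and 588 in CD8+CD122+ cells, against 691 and 980 in CD8+CD122- cells. On each array both genes were lower in CD8+CD122+ cells. The log2 ratios of Tap1 were -0.55 and -0.85, with a mean of -0.70 ± 0.21 (1.63-fold lower; limma's standard error 0.105). Those of Tap2 were -0.60 and -0.74, with a mean of -0.67 ± 0.10 (1.59-fold lower; standard error 0.0718). Neither passed limma's test over all probes, with adjusted p of 0.624 for Tap1 and 0.547 for Tap2 and unadjusted p of 0.00743 and 0.00295.

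Among the 30794 probes tested, 0.568% had a mean log2 ratio as low as that of Tap1 or lower, and 0.662% one as low as that of Tap2. Tap2 was the 1 member at least 1.5-fold lower on both arrays (1.51-fold and 1.67-fold), and Tap1 missed that size on array 1 (1.47-fold and 1.80-fold). This count depended on the processing. It was 2 with the deposited processed signals or without the offset, and 0 without background correction or when loess gave way to median centring. After median centring the log2 ratios on arrays 1 and 2 were -0.35 and -1.16 for Tap1 and -0.28 and -1.13 for Tap2, negative as before. The probe of Tap2 bears that name only in the file of array 2. By that file's positions it lies 20931 bases from the Tap1 probe, so the pair are neighbours and each has 1 probe.

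**Figure D3:**
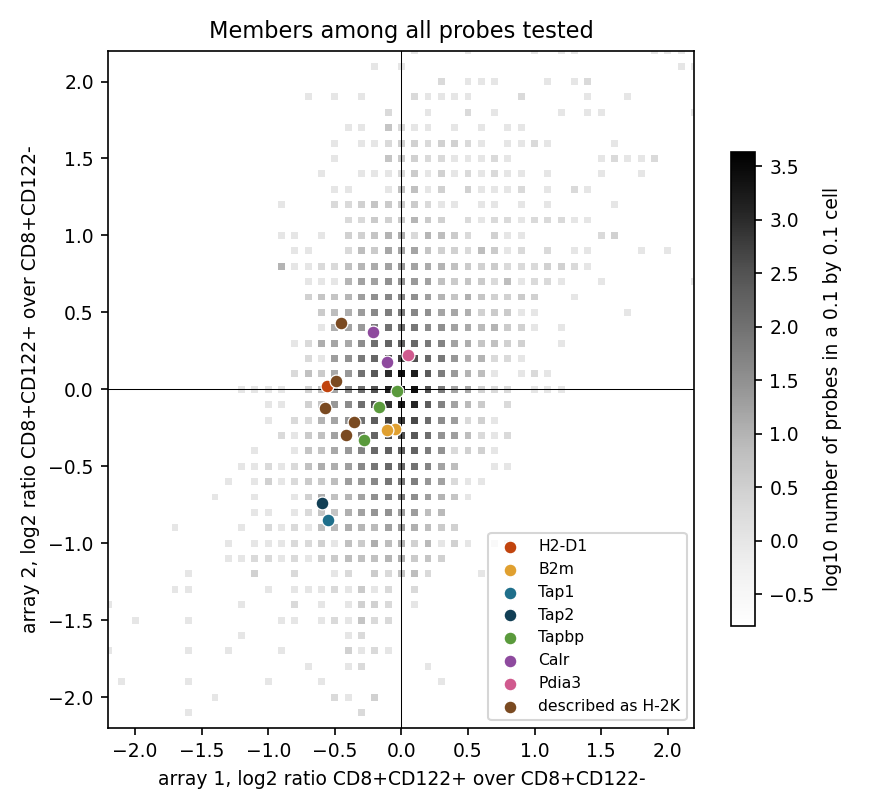
Log2 ratios of CD8+CD122+ over CD8+CD122- on array 1 (x axis) and array 2 (y axis), with all probes tested as grey cells shaded by the log10 of their number and the member and H-2K probes as coloured points. Probes beyond the axes are not drawn. After loess, Tap1 and Tap2 lie low on both arrays, the heavy chain probes lie left of 0 on array 1, and Calr lies in the upper left.

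Tapbp encodes tapasin, which tethers class I molecules to TAP and edits their peptides. Its brightest probe, A_51_P304500, bears the name Tapbp only in the file of array 2. It had 2465 and 2596 in CD8+CD122+ cells, against 2996 and 3267 in CD8+CD122- cells. CD8+CD122+ cells were lower on both arrays by nearly the same ratio, -0.28 and -0.33 on the log2 scale (mean -0.31 ± 0.04; limma's adjusted p 0.696 and unadjusted p 0.0159). With median centring the ratio on array 1 was 0.19 and that on array 2 was -0.78. The probe A_52_P684830, 2926 bases away, had 114 and 166 in CD8+CD122+ cells, against 128 and 180 in CD8+CD122- cells (log2 ratios -0.16 and -0.11). Dim as it was, it was also lower in CD8+CD122+ cells on both arrays. The offset added to every intensity shrinks the ratios of dim probes, this one and those of Tap1 included. One more probe, A_51_P224324, is named Tapbp in the file of array 2, which places it on chromosome 13, and for another transcript in the file of array 1. It had 70 and 80 in CD8+CD122+ cells, against 72 and 80 in CD8+CD122- cells, the offset of 50 included. Its log2 ratios of -0.03 and -0.01 are counted with the members by the rule, but which gene it measures is uncertain.

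Calr encodes calreticulin, a chaperone that binds sugar chains of new glycoproteins, the class I heavy chain among them. Its probe A_51_P416419 had 316 and 395 in CD8+CD122+ cells, against 367 and 305 in CD8+CD122- cells. A_52_P672212, which bears the name Calr only in the file of array 2, had 134 and 153 in CD8+CD122+ cells, against 145 and 135 in CD8+CD122- cells. After loess both probes were lower in CD8+CD122+ cells on array 1 and higher on array 2. The log2 ratios were -0.22 and 0.37 for the first probe and -0.11 and 0.18 for the second. The means of 0.08 ± 0.42 and 0.03 ± 0.21 were smaller than their SDs, and they turned to values just under 0 without normalisation within arrays. With median centring both probes were positive on both arrays. Their log2 ratios were then 0.045 and 0.067 for the first probe and 0.034 and 0.048 for the second, so the opposite signs depended on the scaling.

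Pdia3 encodes ERp57, the disulfide isomerase joined to tapasin in the loading complex, and its probe bears the older name Grp58. It had 1193 and 1240 in CD8+CD122+ cells, against 1153 and 1065 in CD8+CD122- cells. It was the 1 member whose CD8+CD122+ level was higher on each array, by log2 ratios of 0.05 and 0.22 (mean 0.13 ± 0.12; limma's adjusted p 0.885). With median centring its ratio on array 2 was -0.19. The median of the 6 loading factor probes was 0.01 (array 1, -0.14, and array 2, 0.09), and that of the 2 transporter probes was -0.68.

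Genes outside the set that act in the same pathway were read from lists, with 1 probe a gene, the brightest. Over all 16262 named genes read in this way, 25.5% were negative on both arrays, 28.3% positive on both and 46.2% of opposite signs. At least 1.5-fold on both arrays, 0.449% were lower and 0.922% higher, and 0.141% were 2-fold lower and 0.394% 2-fold higher. limma called 0 of them, and 1109 had an unadjusted p under 0.05, 3.73% of all with negative and 3.09% with positive ratios.

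The class Ib and class I-like genes, relatives of the classical heavy chains that show special peptides, lipids or other ligands, had a median of -0.23 (-0.27 on array 1 and -0.14 on array 2). Of 24 genes listed, 19 had a probe and 17 were tested, and 13 of the 17 were negative on both arrays, 2 positive on both and 2 of opposite signs. With median centring the list's median was 0.049 on array 1 and -0.56 on array 2, so its sign on array 1 turned with the scaling. Cd1d1, which presents lipids to NKT cells, was the 1 gene at least 1.5-fold lower on both arrays, with log2 ratios of -0.74 and -0.72 (mean -0.73 ± 0.01; limma's adjusted p 0.428). It had intensities of 299 and 737 in CD8+CD122+ cells, against 500 and 1214 in CD8+CD122- cells. H2-M3, which presents formylated peptides, had -0.17 and -0.89, and H2-T22, a ligand of some gamma delta T cell receptors, had -0.46 and -0.34. Fcgrt, the heavy chain of the neonatal Fc receptor, stood on the other side with 0.95 and 0.55 (mean 0.75 ± 0.28), although it too pairs with B2m. H2-T23 (-0.54 and -0.24), which encodes Qa-1, the ligand of the receptor NKG2A, and H2-Q7 (-0.49 and -0.18), which encodes Qa-2, were picked after their values were seen. Several of these genes are close copies of one another and of H2-K1 and H2-D1, so their probes may share transcripts, and 13 is not a count of independent genes. Probes of 1 gene could disagree: the 5 probes of H2-Q10 ran from -0.34 to 0.45.

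The genes that make and trim the peptides had a median of -0.06 over 22 tested, with 11 negative on both arrays, 7 positive on both and 4 of opposite signs. With median centring its median was 0.30 on array 1 and -0.38 on array 2. The immunoproteasome subunit genes Psmb9, Psmb8 and Psmb10 had log2 ratios of -0.27, -0.13 and -0.02 on array 1 and of -1.05, -0.88 and -0.33 on array 2. All 3 were negative on both arrays, and each was lower on array 2. Psmb9 shares its upstream stretch with Tap1, which was also lower on array 2, as were Tap2 and B2m. Whether that stretch bears on the ratios was not tested. Tapbpl, which encodes the tapasin-related peptide editor TAPBPR, had -0.21 and -0.75, and Npepps, a cytosolic aminopeptidase gene, had -0.49 and -0.28. Erap1, which trims peptides in the endoplasmic reticulum, had 0.03 and 0.06, and Canx, the membrane-bound relative of calreticulin, -0.02 and -0.11. The highest adjusted p of limma among these 7 genes was 0.936 and the lowest 0.732.

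Regulators of class I transcription had a median of -0.04 over 23 tested genes, with 10 negative on both arrays, 5 positive on both and 8 of opposite signs. With median centring its median was 0.12 on array 1 and -0.35 on array 2. The chains of the interferon gamma receptor lay on opposite sides. Ifngr1, the ligand-binding chain, was at least 2-fold higher on both arrays, with log2 ratios of 1.28 and 2.15 (mean 1.71 ± 0.62). Ifngr2, the signalling chain, was at least 1.5-fold lower on both with -1.67 and -0.87 (mean -1.27 ± 0.57), and its other probe had a mean of -0.48. Creb1, whose protein binds the CREB core site, had -0.43 and -0.96, while another of its 3 probes had a mean of 0.04. Nlrc5, the class I transactivator, had no probe under its name. limma's adjusted p was 0.624 for Ifngr1 and no lower for Ifngr2 and Creb1.

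The interferon-stimulated genes had a median of -0.25 over 26 tested, with -0.09 on array 1 and -0.37 on array 2. Of these, 15 were negative on both arrays, 4 positive on both and 7 of opposite signs. With median centring the list's median was 0.092 on array 1, where its sign turned, and -0.70 on array 2. Igtp, an immunity-related GTPase gene (-0.83 and -1.41), was at least 1.5-fold lower on both, and Oas2 (-0.43 and -0.92) and Irgm1 (-0.40 and -0.94) followed. Tap1, Tap2 and B2m, which interferons also induce, had their lower ratio on array 2 as this list did, and H2-D1 and the unsaturated H-2K probes had it on array 1. With median centring all of these probes had it on array 2.

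ER chaperones had a median of 0.03 over 16 genes, with -0.05 on array 1 and 0.14 on array 2, where the 2 Calr probes also had their higher ratios. With median centring the order of the arrays turned for the list, at 0.28 on array 1 and -0.25 on array 2. It did not turn for the Calr probes, which then had 0.045 and 0.067, and 0.034 and 0.048. After loess 3 of the 16 genes were negative on both arrays, 4 positive on both and 9 of opposite signs, and 0 passed 1.5-fold on both. Hspa5, which encodes the chaperone BiP, had 0.07 and 1.28 and Ero1b, an oxidase gene of the endoplasmic reticulum, 0.10 and 0.80. Txndc5, a disulfide isomerase gene, had 0.55 and 0.36, and Sdf2l1 0.35 and 0.17. Read by promoter instead, the 20 tested genes other than Calr with the ER stress element had a median of 0.01, with 5 negative on both arrays, 5 positive and 10 of opposite signs. The 18 tested genes other than H2-K1, H2-D1 and B2m with the arrangement of TGACG and ATTGG had a median of -0.04, with 5 negative on both arrays, 4 positive and 9 of opposite signs. H2-M3 was among these.

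**Figure D4:**
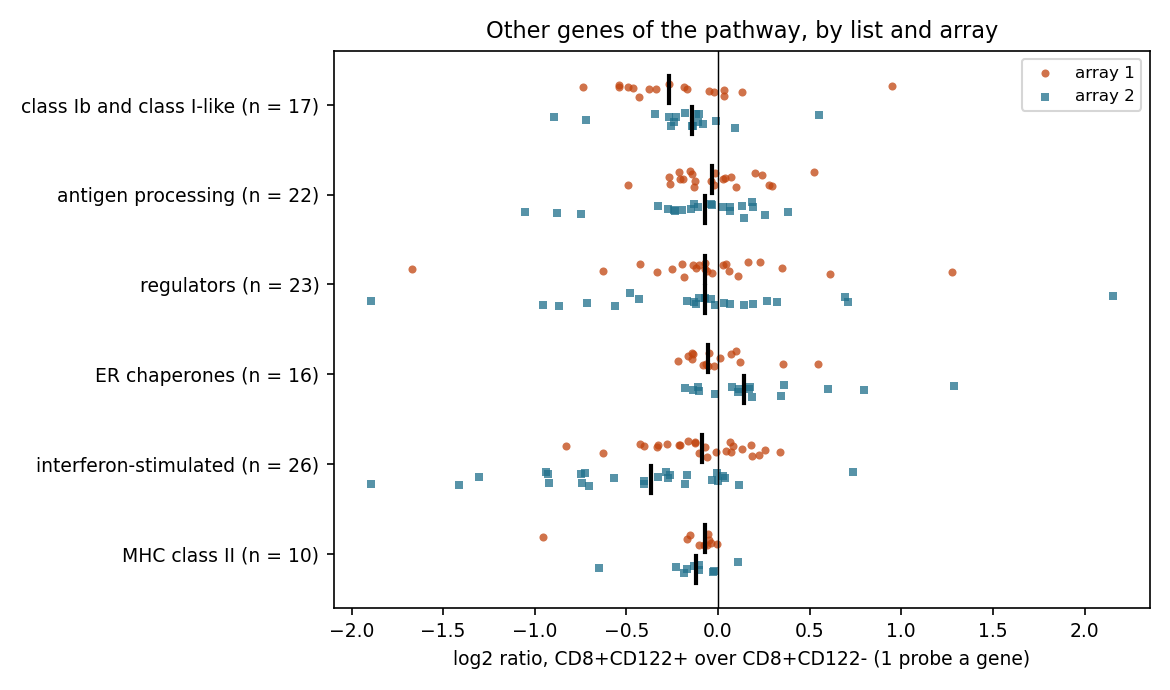
Log2 ratios of CD8+CD122+ over CD8+CD122- (x axis) of the tested genes of 6 lists (rows), 1 probe a gene, with circles for array 1, squares for array 2 and black ticks at each array's median. After loess, the class Ib and interferon-stimulated lists lie furthest left, at medians of -0.27 on array 1 and -0.37 on array 2.

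Markers of other cell types were read on the same arrays, since other cells of the spleen express class I and loading genes as well. Of the 10 MHC class II genes, made by B cells, dendritic cells and macrophages, 9 were negative on both arrays and 1 was of opposite signs (median -0.10). Several of the 9 were dim. H2-Aa, H2-DMb1, H2-Ob and Ciita had intensities between 63 and 84 on array 1, the offset of 50 included. The intensities of the 10 genes summed to 1031 and 1381 in CD8+CD122+ cells, against 1198 and 1560 in CD8+CD122- cells. Sums here and below add probes of different efficiency, and each intensity includes the offset of 50. They therefore do not measure how much of a cell type was present. H2-DMa, which loads class II molecules, was at least 1.5-fold lower on both arrays with -0.95 and -0.65, whereas H2-Oa (-0.17 and -0.19), Cd74 (-0.15 and -0.13) and H2-Ob (0.00 and -0.23) were nearer 0. The 6 B cell markers summed to 782 and 848 in CD8+CD122+ cells, against 817 and 999 in CD8+CD122- cells, with 2 negative on both arrays and 2 positive on both.

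Myeloid markers had 5 of 6 tested positive on both arrays, with a median of 0.06. Sums were 970 and 1457 in CD8+CD122+ cells, against 867 and 1341 in CD8+CD122- cells. Lyz2 alone had 193 and 368, against 113 and 293, and log2 ratios of 0.77 and 0.33. The other positive ones, Csf1r, Cd14, Itgax and Fcgr3, lay between 0.01 and 0.17, although a dimmer Itgax probe had a mean of 0.84. For the 3 tested of 4 NK cell markers the sums were 723 and 803 in CD8+CD122+ cells, against 692 and 777 in CD8+CD122- cells, and Ncr1, which defines NK cells, was not well above background in either population. Cd4 had log2 ratios of 0.09 and -0.12. Of 3 red cell markers 1 was tested, Alas2, at 0.13. The 8 T cell markers had a median of -0.13 (-0.03 on array 1 and -0.31 on array 2). The part of these markers in the class I, TAP and tapasin ratios was not tested.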

How the data were processed

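Agilent Feature Extraction made the scanner files, and their headers give its version as A.7.5.1 (array 1) and 8.1.1.1 (array 2). Per the file headers these files give, for each spot, its mean intensity, the intensity of its local background, and flags of 0 or 1. The deposited processed signals are intensity values too, after background subtraction and dye normalisation. The deposited value table of the series holds log10 ratios of CD8+CD122- over CD8+CD122+, which equal the scanner's log10 ratios, turned on 1 array, to within 4.98e-06 on array 1 and 4.83e-08 on array 2. Each of its columns has a median of 0; whether the authors centred these log10 ratios, and the genome build, are not given in the sources used here.

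Here, spot means were corrected with normexp (offset 50) against the median local background and normalised by loess within arrays, without weight on control spots (limma 3.58.1, R 4.3.3). Outlier spots were left out, saturated ones were kept, and repeated spots of a probe were averaged. Probes well above background in the same population on both arrays were fitted with limma (lmFit and eBayes, 1 residual degree of freedom, two-sided, Benjamini-Hochberg over all probes). A dye term would leave no residual degrees of freedom. Probes were named from the files through a RefSeq table (GRCm38.p6). The named genes were the 8 members, Il2rb, Cd8a, Cd8b1, Nlrc5, Erap1, Canx, Tapbpl, Psmb8, Psmb9 and Psmb10 whatever their values, and from each list up to 4 genes with the largest mean among those of 1 sign on both arrays. Members and lists were chosen with earlier results of these data known. The steps were tested on simulated data. One gene that this rule names is not reported here, although it is counted in its lists.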

Additional observations from a re-analysis of the deposited data

How the results depend on the processing

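The mean ratios of B2m, Tap1, Tap2, Tapbp and Pdia3 kept their sign in every setting. With both arrays Tap1 ran from -0.89 to -0.65 and Tap2 from -0.76 to -0.64. On a single array they ran from -0.85 to -0.55 and from -0.74 to -0.60. Single-array ranges here and below are with the main processing, loess included. Without normalisation arrays 1 and 2 lay further apart, at -0.24 and -1.39 for Tap1 and -0.17 and -1.35 for Tap2. limma called 0 members in each of its alternative fits. Without normalisation within arrays the means of Calr turned to -0.0019 (A_51_P416419) and -0.017 (A_52_P672212), and that of the saturated H-2K probe A_51_P198434 to 0.065, or to 0.12 with median centring. The median of all probes then stood at 0.18 on array 1 and -0.32 on array 2, and with median centring at 0.07 and -0.10. Some bright probes moved by more than these medians. The B2m probe A_51_P129006 went from -0.05 and -0.26 after loess to 0.55 and -0.75 with median centring. Signs on single arrays thus depend on the scaling, and the shift of all probes does not account for their turns alone. Leaving out each array in turn gave H2-D1 from -0.56 to 0.021, Calr from -0.22 to 0.37 and from -0.11 to 0.18, A_51_P190499 from -0.49 to 0.053 and A_51_P198434 from -0.46 to 0.43. A_51_P198434 had no value with saturated spots left out. Members positive on both arrays numbered 2 with median centring, 0 without normalisation and from 1 to 4 on a single array, and members negative on both 3, 2 and from 7 to 10. Those at least 1.5-fold lower were 2 with the processed signals, the deposited value table or no offset, 0 without background correction, with median centring or without normalisation, and from 1 to 2 on a single array. Shares of all probes were not counted in these settings. The member median was -0.20 with the processed signals or the value table, -0.10 with median centring, -0.27 with the brightest probe a gene and from -0.16 to -0.11 on a single array. The class Ib list stood at -0.14 with the mean of all probes and from -0.27 to -0.14 on a single array. The antigen processing list stood at -0.15 without normalisation and from -0.074 to -0.031 on a single array. The regulator list stood at -0.084 with the processed signals or the value table, -0.076 with median centring, -0.022 without an offset, -0.040 without background correction, -0.13 without normalisation, -0.062 with the stricter filter, 0.062 with the mean of all probes and from -0.070 to -0.069 on a single array. The MHC class II list stood at -0.18 with the processed signals, the value table or no normalisation, -0.19 without an offset and from -0.12 to -0.07 on a single array. The interferon-stimulated list ran from -0.37 to -0.09 and the ER chaperone list from -0.05 to 0.14 on a single array. Every value is a ratio of both populations on 1 array and so is already paired, and no further block can be fitted. The number of arrays limits all of these values, and dim probes have shrunken ratios.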
